A study of Mus musculus with 4 samples.

Results

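The genes described here are the inhibitor of DNA binding genes Id1, Id2 and Id3 and 7 genes of bone morphogenetic protein (BMP) signalling and its feedback, namely Atoh8, Smad1, Smad5, Smad6, Smad7, Bambi and Bmpr2. They are 10 of the 27027 gene entries in the deposited table and were picked by symbol. The set was put together because the fold of Id1 after acetaminophen (APAP) was higher at 48 h than at 24 h in these data, so that this contrast is given as a description. All 10 genes passed the filter of 10 normalized reads on average over the libraries, which 12113 of the entries passed.

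Hepatic RNA came from male C57BL/6J mice, 9 to 12 weeks old, that had been fasted for 10 h and had then received APAP at 300 mg/kg or 0.9% NaCl (control) intraperitoneally. RNA was pooled in equal shares from 6 control mice at 24 h, 6 control mice at 48 h, 7 APAP mice at 24 h and 7 APAP mice at 48 h. Every pool gave 1 library of massive analysis of cDNA ends (MACE), which sequences mRNA next to the poly(A) tail. With 1 library per group the spread between mice cannot be seen, no test was run, and all intervals are 95% exact intervals for counting error only.

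BMPs bind serine/threonine kinase receptors, which phosphorylate SMAD1, SMAD5 and SMAD9. Together with SMAD4 these enter the nucleus and switch on target genes, among them the ID genes, ATOH8, the inhibitory SMAD6 and SMAD7, the pseudoreceptor BAMBI and, in hepatocytes, hepcidin. ID proteins hold a helix-loop-helix domain without a DNA-binding region and keep other helix-loop-helix transcription factors from binding DNA. In the liver, sinusoidal endothelial cells are known as a source of BMP2 and BMP6 and stellate cells as a source of BMP9, and BMP signalling to hepatocytes sets iron uptake through hepcidin.

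On GRCm38, the build of the authors' mapping (mm10), Id1 (ENSMUSG00000042745) lies on the plus strand of chromosome 2 from 152736251 to 152737410, in 2 exons, and its 3′UTR covers 152737011 to 152737410. Id3 lies on the plus strand of chromosome 4 from 136143497 to 136145755, Id2 on the minus strand of chromosome 12 from 25093799 to 25097140 and Atoh8 on the minus strand of chromosome 6 from 72206177 to 72235577. Smad6 lies on the minus strand of chromosome 9 from 63953076 to 64022059. The last 300 bases of the transcripts of the 10 genes matched no transcript of another gene at 95% identity over at least 100 bases. The entry of Bmpr2 carries the identifier of Gm38125 as well, which lies within Bmpr2 and does not touch its last 300 bases.

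Promoter windows, from 250 bases before to 50 bases after the RefSeq start site (GRCm38.p6), were at hand for 7 of the 10 genes, not for Id1, Smad7 and Bambi. They were searched on both strands for GGCGCC and GGAGCC, GC-rich words of the kind that SMADs of the BMP branch are known to bind, for the shorter SMAD word GTCT and for CANNTG, the E-box of helix-loop-helix factors. The words do not contain each other, and the letters of neighbouring matches could overlap. The windows of the paralogues Id2 and Id3, of Smad6 and of Atoh8 are shown in the direction of transcription, with GGCGCC and GGAGCC (or its reverse complement GGCTCC) in capitals, since Id3, Smad6 and Atoh8 are pathway targets that reached about 2-fold after APAP and Id2 is the paralogue with the smaller difference.
Id3 (chr4:136143572-136143871, plus strand): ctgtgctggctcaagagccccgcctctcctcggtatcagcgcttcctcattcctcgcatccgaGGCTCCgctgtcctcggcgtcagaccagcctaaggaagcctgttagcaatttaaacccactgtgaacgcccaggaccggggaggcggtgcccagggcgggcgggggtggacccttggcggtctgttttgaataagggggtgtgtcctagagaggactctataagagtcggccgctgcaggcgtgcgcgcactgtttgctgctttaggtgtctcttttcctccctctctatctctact
Id2 (chr12:25096043-25096342, minus strand): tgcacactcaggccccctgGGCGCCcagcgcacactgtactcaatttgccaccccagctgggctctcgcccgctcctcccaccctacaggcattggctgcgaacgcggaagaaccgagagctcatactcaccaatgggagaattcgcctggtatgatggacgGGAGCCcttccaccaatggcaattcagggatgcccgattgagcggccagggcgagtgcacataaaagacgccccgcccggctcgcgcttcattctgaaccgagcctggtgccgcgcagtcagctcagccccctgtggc
Smad6 (chr9:64022010-64022309, minus strand): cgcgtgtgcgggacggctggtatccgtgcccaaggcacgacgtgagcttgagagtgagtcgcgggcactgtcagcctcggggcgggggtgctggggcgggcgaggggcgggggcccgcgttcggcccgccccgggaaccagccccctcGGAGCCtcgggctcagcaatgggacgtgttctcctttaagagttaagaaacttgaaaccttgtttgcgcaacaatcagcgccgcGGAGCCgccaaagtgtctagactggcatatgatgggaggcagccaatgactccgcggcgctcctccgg
Atoh8 (chr6:72235528-72235827, minus strand): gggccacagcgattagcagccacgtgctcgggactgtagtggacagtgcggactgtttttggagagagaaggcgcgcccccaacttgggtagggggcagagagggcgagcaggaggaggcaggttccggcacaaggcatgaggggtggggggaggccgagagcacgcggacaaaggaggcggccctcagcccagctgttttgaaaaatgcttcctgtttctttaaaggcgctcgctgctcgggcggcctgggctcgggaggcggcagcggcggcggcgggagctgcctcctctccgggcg
GGCGCC was found in 11.9% and GGAGCC in 30.8% of all 32851 promoter windows of the same length, GTCT in 88% and CANNTG in 72.3%. The Id2 window held 1 GGCGCC and 1 GGAGCC, the Id3 window 1 GGAGCC and 3 GTCT, the Smad6 window 2 GGAGCC, and the Atoh8 window neither GC-rich word but 2 CANNTG. The window of Bmpr2 and 2 of the 3 windows of Smad5 held GGCGCC. The Smad1 window held none of the words searched. GC content ranged from 59.3% (Bmpr2) to 68.0% (Smad5) in the windows of the set, against a median of 52.7% in all windows. The shares were not adjusted for GC content. Matches are letters in a window and not sites of binding.

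In total, 4859661 and 5191990 reads were counted in the control libraries at 24 h and 48 h, and 5698778 and 4938164 in the APAP libraries. Normalized reads are counts divided by size factors (median of ratios), which were 0.880 and 0.933 for the control libraries and 1.17 and 1.07 for the APAP libraries. Scaling to library totals instead would multiply every fold of APAP over control by 1.14 (24 h) and 1.2 (48 h). Genes were called higher or lower from a 2-fold difference on. In the following, control reads and APAP reads are the counts of the respective pools, with 24 h given first. RPM are counts divided by the library total and multiplied by 1000000. As MACE reads 1 end of a transcript, counts were not divided by transcript length, and levels are compared between libraries and not between genes.

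Id1 was lowest in the 48 h control pool and highest in the 48 h APAP pool. It had 20 and 9 control reads and 129 and 167 APAP reads. In normalized reads this is 22.7 (interval 13.9 to 35.1) and 9.65 (4.41 to 18.3) in the controls and 110 (91.7 to 131) and 157 (134 to 182) after APAP. The counting intervals of the APAP pools lay above those of both control pools. Relative to the control of the same time, Id1 was at 4.83-fold (3.0 to 8.17) at 24 h and 16.2-fold (8.34 to 36.1) at 48 h. Among the genes that passed the filter, 86 had a fold at least as high as Id1 at 24 h and 7 at 48 h, Id1 included. As the set was picked by these folds, the ranks are a description. They hold for the control of the same time only. Against the control pool of the other time point, the fold of Id1 was 11.4 at 24 h and 6.89 at 48 h. In a bulk sample, more cells that express a gene and more RNA per cell cannot be told apart.

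Both other ID genes were also counted more often after APAP, Id3 by about the call threshold and Id2 by less. Id3 was counted with 148 and 198 control reads and 386 and 502 APAP reads at 24 h and 48 h, or 168, 212, 329 and 471 normalized reads. Id3 was at 1.95-fold (1.61 to 2.38) at 24 h and 2.22-fold (1.88 to 2.63) at 48 h, so that only the latter passed 2-fold. Its 4 normalized values kept the order control 24 h, control 48 h, APAP 24 h, APAP 48 h, and the intervals of the control pools overlapped each other but not those of the APAP pools.
Id2 had 419 and 591 control reads and 699 and 835 APAP reads, or 476, 634, 595 and 783 normalized reads. It was at 1.25-fold (1.11 to 1.41) at 24 h and 1.24-fold (1.11 to 1.38) at 48 h. The 48 h control pool (584 to 687) and the 24 h APAP pool (552 to 641) of Id2 had overlapping intervals. Between the control pools it was 1.33-fold higher at 48 h, and against the 48 h control pool the 24 h fold of Id2 was 0.940.

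**Figure D1:**
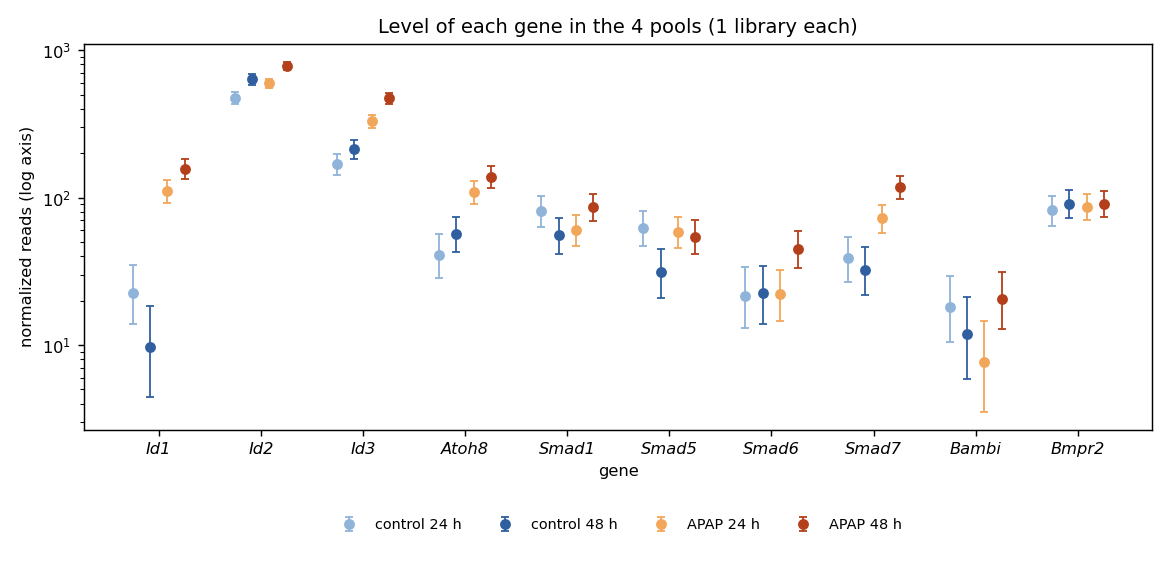
Normalized reads (log axis) of the 10 genes in the 4 pools, 1 library each, with bars for the 95% exact Poisson interval of the count. Id1 reads 22.7 and 9.65 in the control pools against 110 and 157 in the APAP pools, whereas the 4 values of Bmpr2 lie between 81.9 and 91.1.

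Atoh8, a helix-loop-helix transcription factor and known BMP target in hepatocytes, was higher at both time points by a like amount. It had 36 and 53 control reads and 128 and 148 APAP reads, or 40.9, 56.8, 109 and 139 normalized reads. The fold at 24 h was 2.66 (1.83 to 3.97), and at 48 h it was 2.44 (1.77 to 3.41). The APAP pools lay above both control pools without overlap of the counting intervals. Against the control pool of the other time point the fold of Atoh8 was 1.92 at 24 h, short of 2-fold, and 3.39 at 48 h.

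Of the genes that restrain the pathway, Smad7 stood out. SMAD7 binds activated receptors of the BMP and TGF-β branches and targets them for degradation. Smad7 had 34 and 30 control reads and 85 and 126 APAP reads, or 38.7, 32.2, 72.4 and 118 normalized reads. It was at 1.87-fold (1.24 to 2.88) at 24 h and 3.67-fold (2.45 to 5.67) at 48 h, where the interval lay wholly above 2.
Smad6, which acts more on the BMP branch, was level at 24 h and higher at 48 h. It had 19 and 21 control reads and 26 and 48 APAP reads. The fold at 24 h was 1.03 (0.546 to 1.96), and at 48 h it was 2.00 (1.17 to 3.51), which before rounding fell just short of 2.
Bambi, a receptor-like protein without a kinase domain that blocks receptor complexes, had the fewest reads of the 10 genes. It was counted with 16 and 11 control reads and 9 and 22 APAP reads. The fold was 0.421 (0.164 to 1.01) at 24 h, past 2-fold in the lower direction, and 1.75 (0.813 to 3.99) at 48 h. Both intervals hold 1, so that a difference was not detectable at this depth at either time point.

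The receptor-activated SMAD genes of the set, Smad1 and Smad5, and the type 2 receptor gene Bmpr2 were not past 2-fold at either time point against the control of the same time. Smad1 had 71 and 52 control reads and 71 and 92 APAP reads, with a fold of 0.749 (0.532 to 1.06) at 24 h and 1.55 (1.09 to 2.22) at 48 h. Smad5 had 55 and 29 control reads and 69 and 58 APAP reads, with a fold of 0.940 (0.650 to 1.36) and 1.75 (1.10 to 2.83). For Smad5 the 48 h control pool was the low value, at 31.1 normalized reads against 54.4 to 62.5 in the other 3 pools. Against the control pool of the other time point, the 24 h and 48 h folds were 1.08 and 1.07 for Smad1 and 1.89 and 0.870 for Smad5. Bmpr2, the type 2 receptor that starts the kinase cascade, was almost level over all pools, with 72 and 85 control reads and 102 and 97 APAP reads. Its fold at 24 h was 1.06 (0.777 to 1.46), and at 48 h it was 0.998 (0.738 to 1.35). Scaled to library totals, the fold of Smad5 at 24 h was 1.07 and that of Bmpr2 at 48 h was 1.2, so that neither side of 1 was fixed.

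**Figure D2:**
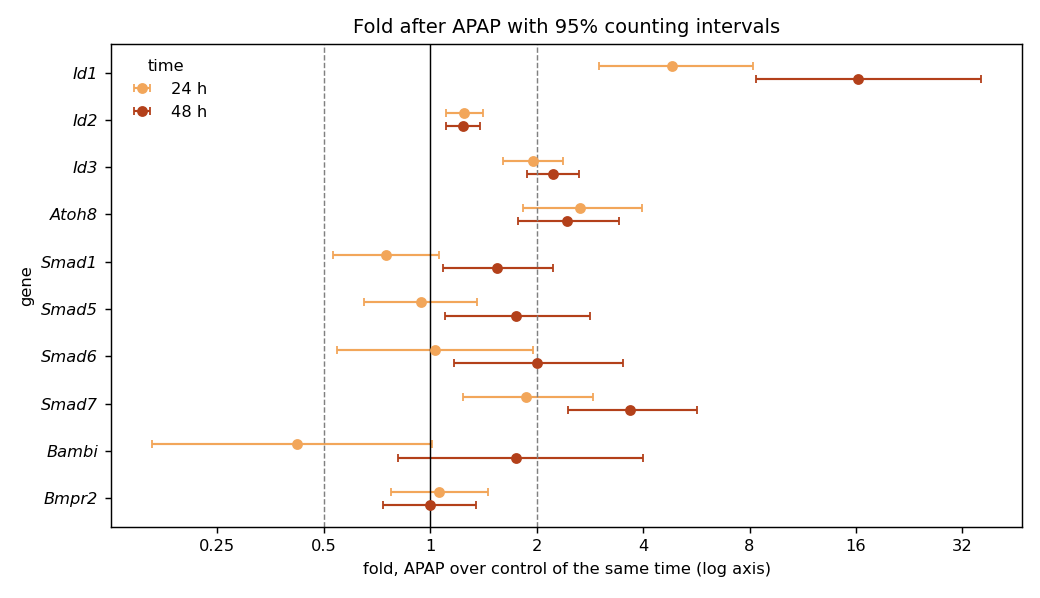
Fold of APAP over the control pool of the same time (log axis) for each gene at 24 h and 48 h, with 95% counting intervals, a solid line at 1 and dashed lines at 0.5 and 2. Id1 is at 4.83 and 16.2, Smad7 at 1.87 and 3.67, and Bmpr2 at 1.06 and 0.998.

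Across the set, 2 of the 10 genes (Id1 and Atoh8) were at least 2-fold higher at 24 h, where 5.85% of the 12112 genes compared were, and 1 (Bambi) was at least 2-fold lower, against 5.68%. At 48 h, 4 genes (Id1, Id3, Smad7 and Atoh8) were at least 2-fold higher, against 5.76% of the genes compared, and none was lower, against 5.61%. The counting interval of the fold lay above 1 for 5 of the 10 genes at 24 h (15.4% of all genes compared) and for 8 at 48 h (13.9%), where that of Bmpr2 and Bambi held 1. Among these, Id2 at 24 h was at 0.940-fold against the control pool of the other time point. At 48 h, Smad1 was at 1.07-fold and Smad5 at 0.870-fold against that pool. The median log2 fold of the 10 genes was 0.20 at 24 h and 0.88 at 48 h, and that of all genes that passed the filter was 0.01 and -0.02. Since the set was chosen with these folds known, the counts describe it and are no test. With library totals, 4 genes were higher by 2-fold or more at 24 h and 7 at 48 h, where the shares of all genes were larger as well, at 8.89% and 10%.

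The 48 h and 24 h pools were next compared within each treatment. In the APAP pools, 2 genes were at least 2-fold higher at 48 h, against 2.82% of all genes compared, namely Smad6 with 2.03-fold (1.24 to 3.41) and Bambi with 2.69-fold (1.19 to 6.64). Smad7 was 1.63-fold (1.23 to 2.17), Id1 1.43-fold (1.13 to 1.81), Id3 1.43-fold (1.25 to 1.64) and Smad1 1.43-fold (1.04 to 1.97) higher at 48 h. Smad5 was the only gene of the 10 with fewer normalized reads at 48 h after APAP, at a ratio of 0.925 (0.641 to 1.33), and no gene was 2-fold lower (2.86% of all genes).
In the control pools, 2 genes were at least 2-fold lower at 48 h, against 2.35% of all genes compared, and none was higher (2.86%). These were Id1, at a ratio of 0.424 (0.17 to 0.975), and Smad5, at 0.497 (0.306 to 0.794). Id2 and Id3 were higher in the 48 h control pool, by 1.33-fold (1.17 to 1.51) and 1.26-fold (1.01 to 1.57), so that Id1 and the other ID genes stood on opposite sides of 1 between the control pools.

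The ratio of the 48 h fold to the 24 h fold combines all 4 libraries. It was at least 2 for Id1, Smad1 and Bambi, against 5.88% of all genes compared, and for no gene 0.5 or less, against 6.28%. For Id1 it was 3.36 (1.40 to 8.64). This ratio is the product of a factor of 1.43 between the APAP pools and of 2.36 (1.03 to 5.88) between the control pools, the latter resting on 20 and 9 reads. Against the control pool of the other time point, the fold of Id1 was 11.4 at 24 h and 6.89 at 48 h, the opposite order with a ratio of 0.605, and against the sum of both control pools it was 6.87 and 9.79, a ratio of 1.43. That Id1 was higher after APAP thus held against either control pool, whereas the order of its folds turned with the control pool used.
Smad7, with similar control pools, had a ratio of 1.96 (1.07 to 3.58), and its fold was 2.25 at 24 h and 3.06 at 48 h against the other control pool. Smad1 had a ratio of 2.07 (1.25 to 3.41), which was 0.985 against the other control pool. The ratio was 1.86 (1.02 to 3.43) for Smad5, 1.95 (0.826 to 4.58) for Smad6 and 4.15 (1.23 to 14.3) for Bambi, and against the other control pool it was 0.460, 2.12 and 1.74. For Id2 (0.989, interval 0.839 to 1.16), Id3 (1.13, 0.875 to 1.47), Atoh8 (0.917, 0.546 to 1.53) and Bmpr2 (0.940, 0.605 to 1.46), the interval held 1. Against the other control pool their ratios were 1.75, 1.81, 1.77 and 1.17. The interval lay above 1 for 5 of the 10 genes, against 8.85% of all genes compared, and the 5 were Id1, Smad1, Smad5, Smad7 and Bambi.

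**Figure D3:**
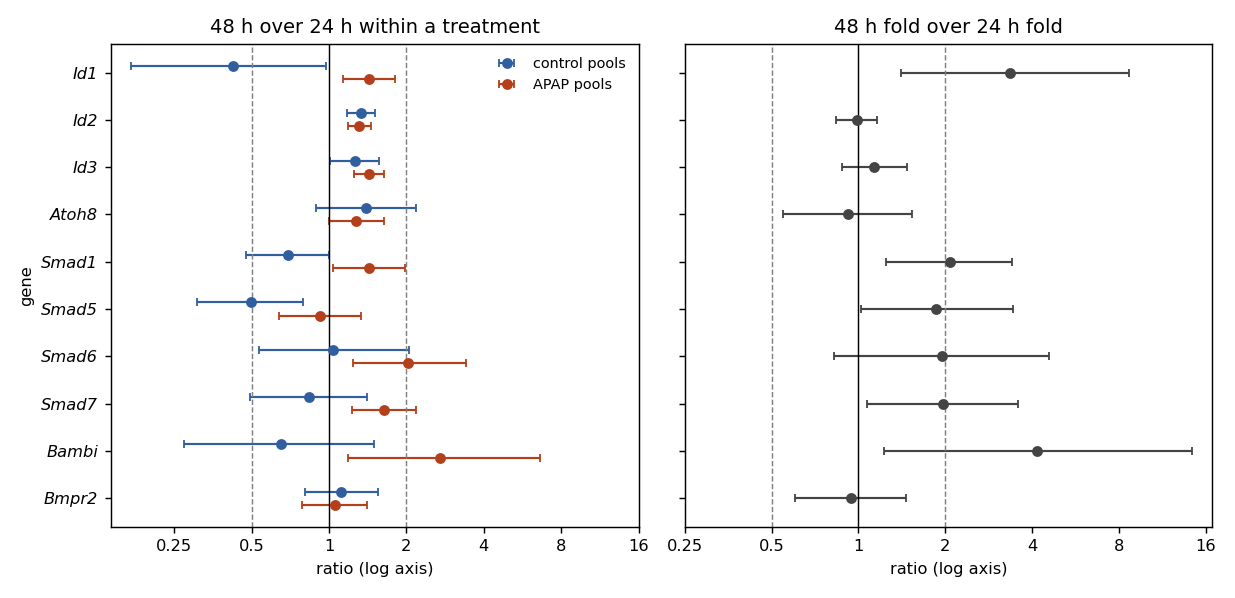
Left, ratio of normalized reads at 48 h over 24 h in the control pools and in the APAP pools. Right, ratio of the 48 h fold to the 24 h fold. Bars are 95% counting intervals, axes are logarithmic, the solid line is at 1 and dashed lines are at 0.5 and 2. For Id1 the control pools (0.424) and the APAP pools (1.43) lie on opposite sides of 1, whereas for Id2 they lie close together at 1.33 and 1.31.

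The remaining pathway was examined in lists of ligands, receptors, SMADs, inhibitors, regulators and targets, chosen by role. Of the 66 further genes in the table, 49 passed the filter of 10 normalized reads on average, which genes low in the control pools could pass through the APAP pools alone. Of these 49, 6 were at least 2-fold higher and 2 at least 2-fold lower at 24 h (12.2% and 4.08%), and 11 were higher and 4 lower at 48 h (22.4% and 8.16%). Of all genes compared, 5.85% were higher and 5.68% lower at 24 h, and 5.76% and 5.61% at 48 h. Against the control pool of the other time point, 6 of these calls were kept and 2 lost at 24 h, and 8 were kept and 7 lost at 48 h. Only genes already called were recomputed, so that calls gained against that pool are not counted. The lost calls were those of Tgfbr2 and Fstl1 at 24 h and of Bmp5, Gdf2, Acvrl1, Acvr1b, Acvr2b, Smad3 and Hamp2 at 48 h. The median log2 fold of the 49 genes was 0.07 at 24 h and 0.21 at 48 h. The shares of all genes given here also stand beside the counts of the single lists below.

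Among 9 measured BMP and activin ligands, Bmp2 and Bmp6, which are best known for hepcidin control, were not past 2-fold against the control of the same time. Bmp2 had 54 and 55 control reads and 44 and 57 APAP reads, with a fold of 0.610 (0.4 to 0.926) at 24 h and 0.906 (0.615 to 1.34) at 48 h. Bmp6 had 16 and 27 control reads and 39 reads in each APAP pool, with a fold of 1.83 (0.997 to 3.50) and 1.26 (0.754 to 2.15). Gdf2, which encodes BMP9, was at 0.640-fold (0.395 to 1.03) at 24 h and 2.33-fold (1.39 to 4.05) at 48 h, and Bmp5 was at 0.613-fold (0.310 to 1.2) and 2.07-fold (0.987 to 4.63). The 48 h folds of both rest on lower 48 h control pools, with 21 reads of Gdf2 and 11 of Bmp5 against 41 and 22 in the 24 h control, and were 1.13 and 0.975 against the latter.
The activin subunits showed other time courses. Inhbb, which encodes the βB subunit of activin B, had 3 reads in either control pool, 39 in the APAP pool at 24 h and 12 at 48 h, a ratio of 9.74 (3.10 to 49.3) and 3.50 (0.944 to 19.3). Inhbe, a hepatocyte activin subunit, was at 1.23-fold (0.813 to 1.88) at 24 h and lower at 48 h with 19 reads against 61, at 0.272-fold (0.154 to 0.462). Inhbc, the ligand gene with the most reads, was at 1.81-fold (1.52 to 2.15) and 1.26-fold (1.06 to 1.49). Gdf15, a stress-induced member of the family, was at 3.16-fold (1.5 to 7.44) at 24 h and at 0.999-fold (0.457 to 2.21) at 48 h. Of the TGF-β ligands, Tgfb1 was at 1.34-fold (0.95 to 1.92) and 1.38-fold (1.03 to 1.87), and Tgfb3, with 1 and 3 control reads and 6 and 9 APAP reads, did not reach the filter.

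Among 12 measured receptors and co-receptors, none reached a 2-fold higher level at 24 h and 1 did at 48 h, namely Acvrl1, the BMP9 receptor of endothelium, at 2.19-fold (1.09 to 4.69). Acvrl1 had 22 and 12 control reads and 17 and 30 APAP reads, and its 48 h fold was 1.12 against the other control pool. Tgfbr2 was at 0.488-fold (0.342 to 0.691) at 24 h and at 1.71-fold (1.18 to 2.52) at 48 h. Tgfbr2 had 86 and 44 control reads and 56 and 86 APAP reads, and its 24 h fold was 1.01 against the other control pool. Acvr1b had 12 and 18 control reads and 31 and 9 APAP reads, and was at 0.437-fold (0.173 to 1.02) at 48 h and 0.619-fold against the other control pool. Acvr2b had 17 and 39 control reads and 19 and 18 APAP reads, and was at 0.404-fold (0.217 to 0.723) at 48 h and 0.873-fold against the other control pool. The endothelial co-receptor Eng, with the most reads of the list, was nearly level at 0.912-fold (0.776 to 1.07) and 0.988-fold (0.845 to 1.16). Hfe2, the BMP co-receptor hemojuvelin of hepatocytes, was at 0.650-fold (0.540 to 0.783) and 0.567-fold (0.474 to 0.676).
The other SMADs were mostly near or under 1 at 24 h. Smad4, the partner of all receptor-activated SMADs, had 49 reads in either control pool and 39 and 67 after APAP, a fold of 0.596 (0.381 to 0.927) at 24 h and 1.2 (0.815 to 1.77) at 48 h. Smad3, of the TGF-β branch, had 36 and 22 control reads and 31 and 52 APAP reads, at 0.645-fold (0.386 to 1.07) and 2.07-fold (1.23 to 3.57), the latter 1.19-fold against the other control pool. Smad2 was at 0.776-fold (0.527 to 1.15) and 0.858-fold (0.571 to 1.29).

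Of 4 measured secreted inhibitors, Fstl1 was higher at both time points, at 2.18-fold (1.31 to 3.76) and 2.09-fold (1.42 to 3.11) but at 1.24-fold and 3.65-fold against the other control pool, and Twsg1, with the most reads, was at 1.08-fold (0.792 to 1.47) and 1.2-fold (0.872 to 1.66). Of 9 measured intracellular regulators, only Skil, a SMAD corepressor, passed 2-fold, at 2.03-fold (1.08 to 4.06) at 24 h, with 1.56-fold (0.781 to 3.25) at 48 h. The phosphatase gene Ppm1a was at 0.795-fold (0.682 to 0.926) and 1.02-fold (0.887 to 1.18), and the ubiquitin ligase gene Nedd4l at 1.02-fold (0.849 to 1.23) and 1.01-fold (0.840 to 1.22).

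Of 5 measured hepatic targets and sensors, 1 was past 2-fold in the lower direction at 24 h, and at 48 h 1 was past it in each direction. Of all genes compared, 5.68% were lower at 24 h, and 5.76% were higher and 5.61% lower at 48 h. The median log2 fold of the 5 genes was -0.62 at 24 h and -0.59 at 48 h. The hepcidin genes lay on opposite sides of 1. Hamp, the hepatocyte BMP target that blocks iron export, had 5953 and 5889 control reads and 15401 and 19538 APAP reads, a fold of 1.94 (1.88 to 2.00) at 24 h and 2.90 (2.82 to 2.99) at 48 h. Its paralogue Hamp2 had 493 and 1670 control reads and 273 and 669 APAP reads, at 0.415-fold (0.357 to 0.482) and 0.350-fold (0.320 to 0.383). Its 48 h pools were above the 24 h pools in both treatments, and against the other control pool the fold of Hamp2 was 0.130 at 24 h and 1.12 at 48 h. The last 300 bases of Hamp and Hamp2 did not match each other at 95% identity over 100 bases, but the long noncoding gene Gm44662 overlaps both on the opposite strand, and the strand setting of the counting is not given in the sources used here. Tmprss6, a protease that restrains BMP signalling at hemojuvelin, was at 0.649-fold (0.593 to 0.709) and 0.665-fold (0.617 to 0.717). Id4, the fourth ID gene, had 6 and 4 control reads and 6 and 8 APAP reads and did not reach the filter.

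Targets of the TGF-β branch were examined beside the BMP targets, as Smad7 responds to both. Of 7 such genes, 3 were higher by 2-fold or more at 24 h and 4 at 48 h, against 5.85% and 5.76% of all genes compared. The median log2 fold of the 7 genes was 0.51 and 1.65. Ctgf, a matricellular protein, was 12.6-fold (5.94 to 32.1) and 8.74-fold (3.51 to 28.1) higher. Timp1, an inhibitor of matrix proteases, had 3 and 4 control reads and 26 and 51 after APAP, a ratio of 6.49 (1.99 to 33.5) and 11.1 (4.10 to 42.5).
Both type I collagen genes were past 2-fold at 48 h and not at 24 h. Col1a1 was at 1.44-fold (0.890 to 2.39) at 24 h and 4.50-fold (3.22 to 6.42) at 48 h, and Col1a2 was at 0.720-fold (0.399 to 1.30) and 3.21-fold (2.08 to 5.11). Tgfbi was at 1.35-fold (1.03 to 1.78) and 0.851-fold (0.674 to 1.07). As Ctgf and Timp1 have many other inducers, the list is not specific for SMAD signalling.

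ID proteins act by binding helix-loop-helix factors, so 12 genes of that family were listed, 11 of which passed the filter. As in the pathway lists, genes low in the control pools could pass through the APAP pools alone. Heyl passed with a mean of 11.4 normalized reads. At 24 h, 2 were past 2-fold in the higher and 3 in the lower direction, and at 48 h 2 and 1. Of all genes compared, 5.85% were higher and 5.68% lower at 24 h, and 5.76% and 5.61% at 48 h. The E proteins themselves were not past 2-fold. Tcf4, with the most reads, was at 1.23-fold (1.07 to 1.41) and 1.26-fold (1.10 to 1.44), Tcf12 at 1.23-fold (0.921 to 1.65) and 1.08-fold (0.790 to 1.48), and Tcf3 at 1.30-fold (0.783 to 2.19) and 1.17-fold (0.666 to 2.07). Hes1, a Notch target and repressor, was higher at both time points, at 2.08-fold (1.32 to 3.36) and 2.17-fold (1.49 to 3.24), with 1.53-fold and 2.96-fold against the other control pool. Myc had 4 and 11 control reads and 36 and 21 APAP reads, and was at 6.74-fold (2.42 to 26.1) at 24 h, 2.60-fold against the other control pool, and at 1.67-fold (0.769 to 3.83) at 48 h. Bhlhe40, a clock-linked repressor, had 195 and 125 control reads and 102 and 72 APAP reads, at 0.392-fold (0.305 to 0.5) and 0.504-fold (0.372 to 0.678), the former 0.648-fold against the other control pool. Olig1, with 17 and 18 control reads and 5 and 8 after APAP, was at 0.22-fold (0.0636 to 0.622) and 0.389-fold (0.146 to 0.939). Heyl, a Notch target, had 11 and 5 control reads and 6 and 24 APAP reads, at 0.409-fold (0.124 to 1.21) and 4.20-fold (1.57 to 14.1), and at 0.953-fold and 1.80-fold against the other control pool. Mxd4, which encodes a partner of MAX, was at 1.08-fold (0.926 to 1.25) and 0.838-fold (0.720 to 0.974).

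The genes whose profile over the 4 libraries was nearest to that of Id1 were found by Euclidean distance between mean-centred log2(normalized reads + 1) values, in which a fold of low genes is understated. They were, from the nearest, Capg (distance 0.49), Runx1 (0.49), Ly6d (0.57), Ccl2 (0.72), 4931428L18Rik (0.83) and Pla2g12a (0.84). Capg, an actin-capping protein, had 17 and 7 control reads and 70 and 119 APAP reads, at 3.08-fold (1.80 to 5.59) and 14.9-fold (7.0 to 37.8). Runx1, a transcription factor of blood cells, had 5 and 2 control reads and 42 and 34 APAP reads, a ratio of 6.29 (2.49 to 20.4) and 14.9 (3.81 to 128). Ly6d, a surface antigen, had 9 and 4 control reads and 100 and 87 APAP reads.
Ccl2, the monocyte chemoattractant, had 4 and 3 control reads and 30 and 63 APAP reads, and Pla2g12a, a secreted phospholipase, had 33 and 18 control reads and 196 and 147 APAP reads. All of them but 4931428L18Rik, with 3 reads in either control pool, shared with Id1 the lower count in the 48 h control pool. As they were picked by nearness to Id1 over all 4 libraries, this likeness is favoured by the choice. None of the other genes of the set was among these neighbours. The nearest was Smad7, at a distance of 1.81 with 122 genes nearer, followed by Atoh8 at 2.07 with 224 genes nearer and Id3 at 2.26 with 390 genes nearer. As 4 libraries give 3 independent differences, nearness in this measure is a description.

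Markers of the cell types in liver were read beside these results, since ID and SMAD genes are expressed in several of them. For the counts of markers past 2-fold, the shares of all genes compared were 5.85% higher and 5.68% lower at 24 h. At 48 h they were 5.76% and 5.61%. Markers low in the control pools could pass the filter through the APAP pools alone. An example is Ccr2 of the macrophage list, with 3 and 6 control reads and 15 and 27 APAP reads. Hepatocyte markers, which check the label liver, were counted in every pool, with summed levels of 77931 and 79773 control RPM and 82254 and 95219 APAP RPM. Alb was at 0.873-fold (0.868 to 0.878) and 0.989-fold (0.983 to 0.995), and Apoa1 at 1.17-fold (1.16 to 1.18) and 0.968-fold (0.958 to 0.978). Of 9 measured hepatocyte markers, 1 was past 2-fold in the higher direction at 24 h (Fgb, 2.70-fold, with 1.34-fold at 48 h) and 1 in the lower direction at 48 h (Cyp2e1, 0.369-fold, with 0.623-fold at 24 h). Ttr was at 0.561-fold and 1.06-fold.
Sinusoidal endothelial markers, from cells in which ID genes are known to be expressed, were nearly level as a list but not gene by gene. Their sum was 306 and 319 control RPM and 320 and 379 APAP RPM, and of 13 markers 1 (Lyve1) was 2-fold higher or more at 24 h as well as at 48 h. Dnase1l3 was at 0.570-fold (0.490 to 0.661) and 0.803-fold (0.693 to 0.931), and Clec4g at 0.940-fold (0.782 to 1.13) and 0.902-fold (0.755 to 1.08). Pecam1 was at 1.67-fold (1.23 to 2.30) and 1.94-fold (1.42 to 2.66), and Egfl7 at 1.64-fold (1.18 to 2.30) and 1.41-fold (1.05 to 1.91). The median log2 fold of the endothelial list was -0.08 at 24 h and -0.01 at 48 h, beside 0.20 and 0.88 for the ID and feedback genes.

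Summed markers of macrophages, neutrophils and stellate cells were higher after APAP. At 24 h, single markers of the macrophage and stellate lists lay on both sides of 1. The largest differences in reads of these 2 lists at 24 h were those of Lyz2 (84 control and 384 APAP reads) and Dcn (222 and 406). The macrophage and monocyte list summed to 193 and 202 control RPM and 265 and 456 APAP RPM, with 3 of 11 measured markers higher by 2-fold or more at 24 h and 5 at 48 h. Lyz2, with the most reads of the list, was 3.42-fold (2.70 to 4.39) and 5.39-fold (4.38 to 6.67) higher, and Cd5l was at 1.12-fold (0.926 to 1.36) and 1.51-fold (1.28 to 1.79). The median log2 fold of the list was 0.16 and 0.65. Clec4f, a marker of resident Kupffer cells, was at 0.534-fold (0.441 to 0.645) and 0.985-fold (0.831 to 1.17), and Csf1r was at 0.995-fold and 0.936-fold. The neutrophil list summed to 3.09 and 3.27 control RPM and 42.5 and 34.8 APAP RPM. S100a8, with the most reads of it, was 20.8-fold (8.71 to 65.2) and 9.27-fold (4.85 to 19.9) higher, and 11.0-fold and 17.5-fold against the other control pool. S100a9 had 6 and 1 control reads and 75 and 38 APAP reads, a ratio of 9.37 (4.11 to 26.3) and 33.2 (5.61 to 1347). Against the other control pool S100a9 was at 19.9-fold at 24 h, with the control count set to 3, and at 5.22-fold at 48 h.
The stellate cell and fibroblast list summed to 152 and 144 control RPM and 192 and 278 APAP RPM, with 1 of 10 markers (Acta2, 2.16-fold) higher by 2-fold or more and 1 (Lum, 0.444-fold) lower at 24 h, and 3 higher at 48 h. Acta2 had 27 and 13 control reads and 78 and 202 APAP reads, at 13.6-fold (7.77 to 26) at 48 h and 6.17-fold against the other control pool. Dcn, with the most reads of it, was at 1.37-fold (1.16 to 1.62) and 1.48-fold (1.27 to 1.73), and Ecm1 at 0.965-fold (0.815 to 1.14) and 1.23-fold (1.03 to 1.47). The cholangiocyte list, led by Sox9 at 3.97-fold (2.99 to 5.35) and 1.79-fold (1.33 to 2.42) and Spp1 at 1.90-fold (1.37 to 2.67) and 2.14-fold (1.61 to 2.88), summed to 26.3 and 33.5 control RPM and 82.8 and 67.0 APAP RPM. Its other markers, Krt7, Krt19, Epcam and Cldn7, did not reach the filter. Krt7 had 8 and 8 control reads and 15 and 2 APAP reads, and Krt19 had 6 and 13 and then 8 and 8. Epcam had 2 and 10 control reads and 5 and 7 APAP reads, and Cldn7 had 2 and 5 and then 5 and 4. Unlike Sox9 and Spp1, each of them had fewer APAP than control reads at 48 h. Lymphocyte markers summed to under 10 RPM in every pool. Cd4 had 20 and 20 control reads and 20 and 19 APAP reads, Cd79b had 6 and 7 control reads and 3 and 3 APAP reads, and Cd8a had no read in any pool. The median log2 fold of the stellate list was -0.06 at 24 h and 0.70 at 48 h. With size factors, the summed counts of the macrophage, neutrophil, stellate and cholangiocyte markers were higher in the APAP pools. The ratios to the control pools were 1.2, 12.1, 1.11 and 2.76 at 24 h and 1.88, 8.85, 1.60 and 1.66 at 48 h. The cholangiocyte sums rested mostly on Sox9 and Spp1. Summed counts of the hepatocyte (0.927 and 0.993 times) and endothelial markers (0.921 and 0.989 times) lay below 1 with size factors and above 1 in RPM. The lymphocyte sums were at 0.566 and 0.805 times with size factors. The part of these cell types in the values of the ID and feedback genes was not tested.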

How the data were processed

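Hepatic RNA of 4 pools was sequenced by MACE, 1 library per pool. The authors digested the RNA with DNase, removed duplicate reads by unique molecular identifiers, clipped poly(A) tails, ran cutadapt, mapped to mm10 and deposited raw read counts per gene from HTSeq. Tool versions are not given in the sources used here. The deposited table also holds scaled values, log2 fold changes, p-values and false discovery rates of the authors, which were not used.

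Size factors (median of ratios) came from DESeq2 1.42.0 and, as an alternative, TMM from edgeR 4.0.16, in R 4.3.3. As there was 1 library per group, no test was run with either. Folds are ratios of normalized reads, called from 2-fold on where the libraries averaged 10 or more normalized reads. Counts of 3 reads or fewer were set to 3 (0.526 to 0.617 RPM) for calls, and where 1 to 3 reads were counted the text gives the plain ratio. Intervals are 95% Clopper-Pearson (folds), conditional exact (ratios of folds) or exact Poisson (levels), computed with scipy 1.17.1 in Python 3.11.15, and cover counting error only. Medians used a pseudocount of 1. The procedure was tested on simulated data. Positions came from GENCODE M21, promoter windows from RefSeq (GRCm38.p6), and shared 3′ ends from blastn 2.17.0.

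The 10 genes and all lists were chosen with earlier results of these data known. Named were the 10 genes, genes of the pathway lists past 2-fold, the 2 genes with the highest mean of each list, the 6 genes nearest to Id1, and Hamp, Smad4, Bmp2 and Bmp6. Lyve1, Pecam1, Egfl7, Fgb, Cyp2e1, Ttr, Clec4f, Csf1r, Ccr2, Acta2, Lum, Tcf3, Tcf12, Id4 and Cd8a were added after their values were seen. So were the cholangiocyte markers Krt7, Krt19, Epcam and Cldn7. Other scalings, floors, thresholds and control pools were tried as alternatives. Sequences of ID proteins were not used here. 1 gene of the pathway lists is not reported here and was left out of their counts.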

Additional observations from a re-analysis of the deposited data

Results flagged for a closer look

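For 4 of the 10 genes the fold after APAP lay on opposite sides of 1 at 24 h and 48 h, each with 1 library per group, and the difference was not tested. The share of all genes with such folds was not counted, so the number is not read as particular to the set. Bmpr2 was nearly level at both time points. The ratio of the 48 h fold to the 24 h fold was 4.15 for Bambi (0.421 at 24 h, 1.75 at 48 h), 2.07 for Smad1 (0.749 and 1.55), 1.86 for Smad5 (0.940 and 1.75) and 0.940 for Bmpr2 (1.06 and 0.998). The counting interval of this ratio lay above 1 for Bambi (1.23 to 14.3), Smad1 (1.25 to 3.41) and Smad5 (1.02 to 3.43) and held 1 for Bmpr2 (0.605 to 1.46). All 3 of the former had a lower count in the 48 h control pool than in the 24 h control pool, with 16 and 11 reads of Bambi, 71 and 52 of Smad1 and 55 and 29 of Smad5. Against the control pool of the other time point, the fold of Smad1 was 1.08 at 24 h and 1.07 at 48 h, that of Smad5 was 1.89 and 0.870, and that of Bambi was 0.650 and 1.13. Scaled to library totals, the folds of Smad5 (1.07 and 2.10) and Bmpr2 (1.21 and 1.2) lay above 1 at both time points.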

How the results depend on the processing

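No paired analysis was possible because each group has 1 library. Under the alternative settings, 65 recounts of the genes past 2-fold stayed within 1.5 times the reported count and 17 did not. With library totals, also without the 10 most abundant genes, 4 genes were higher at 24 h, 7 at 48 h and 5 by the ratio of folds, against 2, 4 and 3, while the shares of all genes with library totals were 8.89%, 10% and 7.09%. At a threshold of 1.5-fold the numbers were 4, 8 and 6, and the shares 14.2%, 13.6% and 14.3%. The gene lower at 24 h, Bambi, was lost (0 genes) against the other control pool, against the sum of both control pools and where the interval had to leave out 1. With TMM or a pseudocount of 1 without a floor, 1 gene was lower at 48 h among the control pools, and with the pseudocount 1 was higher at 48 h among the APAP pools, against 2 each. Recomputing the ratio of folds against the control pool of the other time point was chosen after seeing the data. Of the 3 ratios past 2-fold it turned those of Id1 (0.605) and Smad1 (0.985) to the other side of 1, as it did those of Smad5 (0.460), Id2 (1.75), Atoh8 (1.77) and Bmpr2 (1.17), and 1 gene each was then past 2-fold in the higher (Smad6) and lower (Smad5) direction, against 3 and 0. Of all recomputed folds and ratios, 26 of 310 lay on the other side of 1 than the reported value, 13 of them against the other control pool, 6 against the sum of both and none with TMM. The 24 h call of Atoh8 was lost against the other control pool (1.92), where Smad7 (2.25) passed 2-fold. Of the calls in the other lists, also recomputed against that pool after seeing the data, the pathway lists lost 2 at 24 h and 7 at 48 h, the helix-loop-helix list 3 and 1, and the marker lists 2 (Ccr2 and Lum) at 24 h. Under library totals the genes past 2-fold were 71.2% higher ones at 24 h and 75.8% at 48 h, against 50.8% and 50.7%. The share of all genes at least 2-fold higher at 48 h was 2.30% over genes with a mean of 50 normalized reads and 8.51% without a filter. Depth limits Bambi, Smad6 and the control counts of Id1 most.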
